A study of Mus musculus with 6 samples.

Results

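The D-type cyclins, the kinases they activate, the inhibitors that restrain those kinases and their substrate Rb1 together decide whether a cell in G1 enters S phase. The members were listed by gene symbol, with no measured value in the rule. Earlier results of these data were known when they were chosen. Of 10 named genes, 9 had a row in the deposited table of 18491 genes, and these 9 were all among the 15474 genes that passed the filter on low counts and were tested. They are the D cyclins Ccnd1, Ccnd2 and Ccnd3, the kinases Cdk4 and Cdk6, the Cip/Kip inhibitor Cdkn1b (p27), the INK4 inhibitors Cdkn2c (p18) and Cdkn2d (p19), and the pocket protein gene Rb1. Cdkn1c (p57) was not analysed here.

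RNA was sequenced from cells labelled as hematopoietic stem progenitor cells, sorted from mouse bone marrow. Sorting took place 8 months after poly(I:C) (synthetic RNA that induces interferon). Of the 6 libraries, 3 are wild type and 3 are Robo1 knockout by their descriptions. The design text gives a Robo1 deletion by Mx1-cre after 3 doses of poly(I:C), whereas titles and treatment entries speak of shRNA control and knockdown, with ROBO1, ROBO2 and ROBO3 entered as targets of knockout replicates 1, 2 and 3. Mx1-cre is driven by an interferon-inducible promoter that is not restricted to blood cells. The labels give neither the animals' ages nor whether wild-type mice carried the Cre or a floxed allele, nor do they say that each library is a different mouse. P-values therefore cover no more than library-to-library spread, possibly technical. Robo1 transcripts were not analysed here and offered no check of genotype.

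As background, D cyclins bind Cdk4 or Cdk6, and the complexes phosphorylate the retinoblastoma protein, which then releases E2F transcription factors that switch on S phase genes. INK4 proteins bind Cdk4 and Cdk6 and block cyclin binding, while Cip/Kip proteins act on cyclin-bound complexes, mainly those of Cdk2. In blood-forming tissue Cdk6 governs how fast quiescent stem cells leave G0, p18 limits stem cell divisions, and Ccnd2 and Ccnd3 serve different lineages. These are RNA levels, and activity of the kinases was not measured.

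The promoters of the kinase pair and of Ccnd3 are shown because Cdk4 and Ccnd3 were the members called higher in knockout with TMM scaling, while Cdk6 was not. The sequences are from RefSeq on GRCm38.p6, 250 bases before and 50 bases after the annotated start. Capitals mark E-boxes (CACGTG, a palindrome bound by Myc-Max and related factors) and GC boxes (GGGCGG or, on the other strand, CCGCCC). These motifs were chosen after the values and promoters were seen.
Cdk4 promoter, chr10:127063285-127063584, plus strand: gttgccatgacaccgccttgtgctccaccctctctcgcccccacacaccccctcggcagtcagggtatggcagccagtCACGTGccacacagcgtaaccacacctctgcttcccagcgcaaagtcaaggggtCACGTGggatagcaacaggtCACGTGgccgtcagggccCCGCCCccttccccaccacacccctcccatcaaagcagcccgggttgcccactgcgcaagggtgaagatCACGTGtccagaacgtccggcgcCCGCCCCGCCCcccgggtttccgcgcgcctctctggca
Cdk6 promoter, chr5:3343643-3343942, plus strand: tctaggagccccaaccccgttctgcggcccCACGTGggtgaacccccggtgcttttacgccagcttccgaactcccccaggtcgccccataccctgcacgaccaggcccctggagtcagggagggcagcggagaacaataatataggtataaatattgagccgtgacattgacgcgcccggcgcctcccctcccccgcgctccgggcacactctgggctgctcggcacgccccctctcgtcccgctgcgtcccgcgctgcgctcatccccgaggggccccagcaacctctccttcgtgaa
Ccnd3 upstream promoter, chr17:47504801-47505100, plus strand: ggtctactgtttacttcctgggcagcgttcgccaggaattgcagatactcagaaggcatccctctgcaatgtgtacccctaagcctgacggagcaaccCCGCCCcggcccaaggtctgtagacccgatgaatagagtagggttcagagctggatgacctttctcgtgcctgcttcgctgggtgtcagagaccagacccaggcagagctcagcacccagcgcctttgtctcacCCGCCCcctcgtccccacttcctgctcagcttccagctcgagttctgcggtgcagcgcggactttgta
Ccnd3 downstream promoter, chr17:47593217-47593516, plus strand: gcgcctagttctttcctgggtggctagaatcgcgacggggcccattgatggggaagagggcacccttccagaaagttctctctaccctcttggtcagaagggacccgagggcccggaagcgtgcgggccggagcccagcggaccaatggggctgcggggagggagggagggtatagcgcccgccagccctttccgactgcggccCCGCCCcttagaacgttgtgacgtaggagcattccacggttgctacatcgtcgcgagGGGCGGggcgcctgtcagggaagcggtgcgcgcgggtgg

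The Cdk4 window held 4 E-boxes and 3 GC boxes, the last 2 of them overlapping, and the Cdk6 window held 1 E-box and 0 GC boxes. The Ccnd3 windows held 0 E-boxes and 2 GC boxes each. Among 32851 RefSeq promoters of the same length, 7.15% held at least 1 E-box, 0.0244% (8 promoters) held at least 4, and 35.7% held at least 1 GC box. In all, 8 promoters of 6 members were in the RefSeq table, and 3 of these held an E-box, 6 a GC box and 1 an E2F core (TTGGCGC or TTCCCGC or TTCGCGC or TTGCCGC, either strand; 9.57% of all promoters). Of those not shown, the Cdkn2d window held 5 GC boxes, the Cdkn1b window 1 and the upstream Cdkn2c window 4. The downstream Cdkn2c window held 1 E-box. Cdkn2d, Cdkn1b and Cdkn2c were not called with TMM, and whether the motifs go with the calls was not tested. A match is a string of letters and not a measured binding site.

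Total counts were 42235077 to 58106099 per library. Levels are given as CPM (counts relative to library size), with library sizes scaled by TMM, which sets libraries level on the bulk of genes rather than on the total. The TMM factors were 1.44 to 1.52 in wild type and 0.660 to 0.685 in knockout. The choice matters throughout. With TMM 17.2% of the genes tested were called higher in knockout and 14.4% lower (edgeR quasi-likelihood test, adjusted p under 0.05), and with total counts 4.24% were higher and 70.7% lower. The median log2 fold change of all genes was -0.09 with TMM and -1.22 with total counts. In bulk RNA, fewer cells of a type and less RNA per cell cannot be told apart.

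Markers listed for blood cell types differed between the same groups, and their part in the members' values was not tested. With TMM, 7 of 10 eosinophil, basophil and mast cell markers rose and 0 fell, and their summed level was 7820 to 9131 CPM in wild type and 47950 to 53669 CPM in knockout. Likewise 7 of 10 neutrophil markers rose and 0 fell, with sums of 84913 to 95264 and 265247 to 281127 CPM. That sum was mostly Mpo (49728 ± 2056 and 149546 ± 4268 CPM) and Elane (31650.5 ± 2768 and 87329.6 ± 3780 CPM, mean ± SD, n = 3 each). On the same list Ltf, Camp and Mmp8 did not pass. Of 12 stem and progenitor markers 2 rose and 3 fell, with sums of 211 to 217 and 230 to 236 CPM. All 12 had counts, and the stem cell receptor gene Kit stood at 13.7 ± 1.77 and 16.9 ± 0.276 CPM (mean ± SD, n = 3 each). Of the remaining lists, monocyte and macrophage markers gave 2 higher and 1 lower of 8 (sums 801 to 894 and 2982 to 3375 CPM), B lineage 1 and 4 of 8 (698 to 788 and 1011 to 1206 CPM), T and NK 1 and 1 of 6 (3369 to 3432 and 6324 to 6739 CPM), erythroid 4 and 1 of 10 (1442 to 1932 and 4778 to 5742 CPM), megakaryocyte 1 and 2 of 6 (153 to 164 and 168 to 190 CPM) and stromal 0 and 0 of 2 (12.5 to 13.9 and 9.78 to 12.9 CPM). The B lineage sum was mostly Jchain (641 ± 37.8 and 992 ± 108 CPM, n = 3 each) and the T and NK sum mostly Nkg7 (3379 ± 35.6 and 6499 ± 211 CPM), while the medians of these lists were -0.17 and -0.64 on the log2 scale. No listed marker with a row was at 0 in all libraries. Under total counts 0 stem and progenitor markers rose and 11 fell (sums 303 to 329 and 152 to 162 CPM). Neutrophil markers gave 5 higher and 3 lower, and eosinophil, basophil and mast cell markers 5 and 4. Sums then fell for the B lineage (1041 to 1155 and 667 to 820 CPM), T and NK, megakaryocyte and stromal lists. They stayed higher in knockout for the eosinophil, neutrophil, monocyte and erythroid lists.

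The comparison asks how the RNA of G1 regulators differs between knockout and wild type. With TMM Cdk4 and Ccnd3 rose, 0 members fell and 7 did not pass, that is 2 of 9 against a background of 17.2% called higher. In 5 members every knockout library lay above every wild-type library (22.2% of all genes did), in 1 it lay below (24.4%), and in 3 the groups overlapped. With total counts 0 members rose and all 9 fell, against a background of 70.7% called lower, and every knockout library lay below every wild-type library in all 9 (76.1% of all genes, and 4.85% lay above). The median log2 fold change of the members was 0.18 with TMM, where that of all genes was -0.09, and -0.95 with total counts, where that of all genes was -1.22. Corrected also for exon length and GC content, 5 members were called higher (Ccnd2, Ccnd3, Cdk4, Cdk6 and Cdkn1b; 17.2% of all genes were), and DESeq2 called 3 (Ccnd2, Ccnd3 and Cdk4; 18.5% of all genes).

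**Figure D1:**
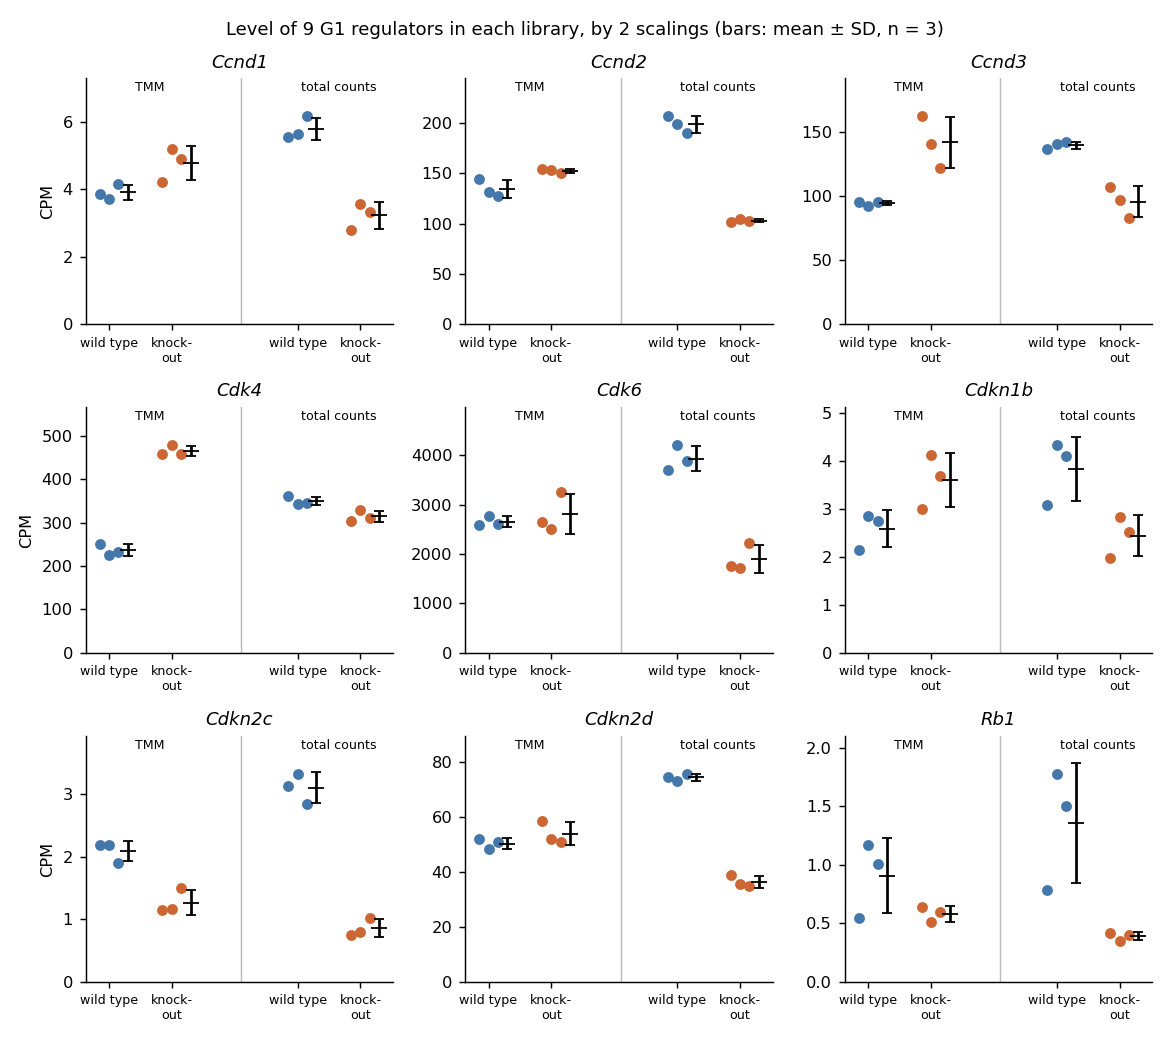
CPM of the 9 members in each library, with TMM scaling at the left of each panel and total counts at the right; points are libraries, blue wild type and orange knockout, and bars are mean ± SD (n = 3). Cdk4 is higher in knockout with TMM (458 to 480 against 226 to 252 CPM) and slightly lower with total counts (303 to 329 against 343 to 362 CPM).

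Cdk4, the ubiquitous G1 kinase (ENSMUSG00000006728, chromosome 10, 127063534 to 127067920, plus strand, GRCm38), changed most among members with TMM. Wild-type libraries held 16136, 18530 and 20135 reads of it, knockout libraries 17297, 16991 and 13163. With TMM these came to 252, 226 and 232 CPM in wild type and 459, 480 and 458 CPM in knockout. The groups did not overlap and lay far apart relative to their spread. Cdk4 was 1.97-fold higher (log2 fold change 0.98, SE 0.06, edgeR adjusted p = 3.17e-06). With total counts it was at 362, 343 and 347 CPM in wild type and 303, 329 and 312 CPM in knockout, a log2 difference of -0.16 (SE 0.06, edgeR adjusted p = 0.034), a small call in the other direction. Cdk4 shares 641 exon bases with Tspan31 on the opposite strand, and strand-specific counting is not stated in the labels. Tspan31 had 1525 to 3929 counts and a log2 fold change of 0.07 with TMM (edgeR adjusted p = 0.607).

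The genes whose profile over the 6 libraries was most like that of Cdk4, among 4922 candidates, were Atp5h, Rpl34 and Cox6c. The measure was the root mean square difference in log2 CPM after centring each gene on its own mean, which was 0.0307, 0.0310 and 0.0321. Atp5h and Cox6c encode subunits of mitochondrial respiratory complexes and Rpl34 a ribosomal protein. Their log2 fold changes were 0.99, 0.98 and 0.94 with TMM and -0.15, -0.16 and -0.20 with total counts. That these lie near the values of Cdk4 follows from how the genes were picked.

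Cdk6, the D cyclin kinase most tied to blood cells (ENSMUSG00000040274, chromosome 5, 3341485 to 3531008, plus strand), was by counts the most abundant member. It took 0.371%, 0.422% and 0.389% of all counts in wild type against 0.175%, 0.172% and 0.222% in knockout. With TMM it stood at 2584, 2779 and 2607 CPM in wild type and 2657, 2512 and 3265 CPM in knockout. The groups overlapped, and knockout replicate 3 was the highest library. The log2 fold change was 0.08 (SE 0.09, edgeR adjusted p = 0.564), and without that library it was -0.04. With the length and GC correction Cdk6 was called higher (log2 0.36, SE 0.09, edgeR adjusted p = 0.0108). With total counts it was called lower (log2 -1.05, SE 0.10, edgeR adjusted p = 8.43e-06).

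The balance between the kinases is a ratio within each library and does not depend on how libraries are scaled. The ratio of Cdk6 to Cdk4, in counts per base of exon, was 2.38, 2.85 and 2.61 in wild type against 1.34, 1.22 and 1.66 in knockout. Every knockout library lay below every wild-type library. The log2 ratio fell by 0.90 between the group means, from 1.38 ± 0.13 to 0.48 ± 0.23 (mean ± SD, n = 3 each; exact permutation test, two-sided, p = 0.1, the smallest that 3 against 3 allows, and 0.125 adjusted over 5 ratios). Deposited FPKM allow for length and follow total counts. By that measure Cdk4 made up 34.4 ± 1.77% of the summed level of the kinase pair in wild type against 49.2 ± 3.52% in knockout (n = 3 each). By FPKM Cdk6 stood above Cdk4 in all 3 wild-type libraries (265, 309 and 285 against 149, 149 and 152), and in knockout the order differed between libraries (128, 125 and 161 for Cdk6 against 129, 136 and 133 for Cdk4).

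Exon length moved with the fold changes of all genes, and the kinases differ in it, with 3249 exon bases in Cdk4 and 13989 in Cdk6. The median log2 fold change with TMM was 0.35 in the shortest of 4 equal classes of exon length (38 to 1785 bases), -0.09 in class 2, which holds Cdk4, and -0.20 in the longest (5965 bases and more), which holds Cdk6. The part of length in the members' values was not tested beyond the correction. With the length and GC correction, an alternative chosen for this ratio after seeing the data, the log2 difference between Cdk6 and Cdk4 was -0.68.

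**Figure D2:**
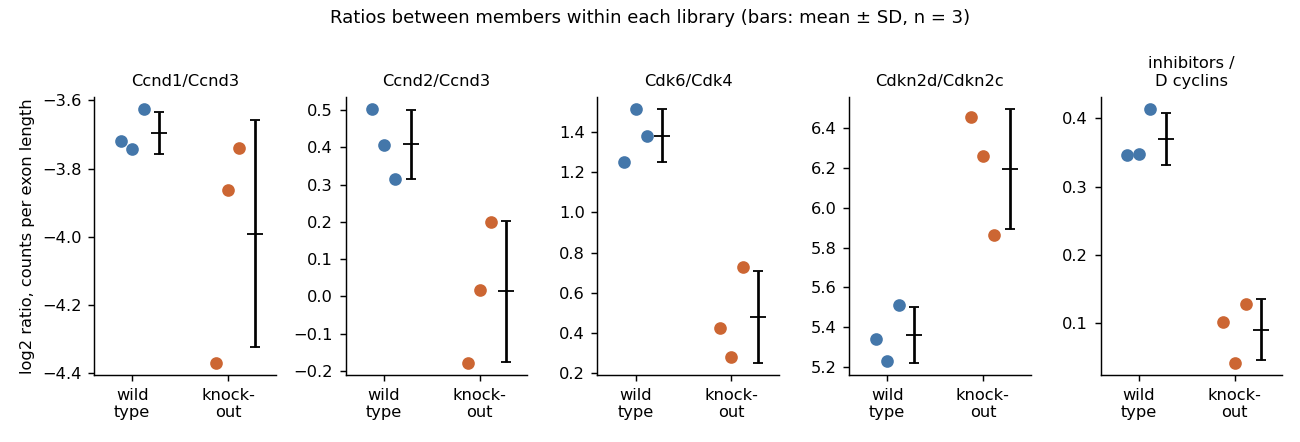
Log2 ratios between members within each library, from counts per base of exon; each panel has its own axis, which does not start at 0, points are libraries and bars are mean ± SD (n = 3). Cdk6 relative to Cdk4 is lower in all 3 knockout libraries, Cdkn2d relative to Cdkn2c is higher in all 3, and Ccnd1 relative to Ccnd3 overlaps between the groups.

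The D cyclins bind and activate these kinases. Ccnd3 (ENSMUSG00000034165, chromosome 17, 47505051 to 47599691, plus strand) stood at 94.9, 92.5 and 95.3 CPM in wild type and 163, 141 and 122 CPM in knockout with TMM. All knockout libraries lay above wild type, but they spread more widely (SD 20.2 against 1.57 CPM). Ccnd3 was 1.51-fold higher (log2 0.59, SE 0.10, edgeR adjusted p = 0.00158), and with total counts it was called lower (log2 -0.54, SE 0.09, edgeR adjusted p = 0.000451). It shares 361 exon bases with Bysl on the opposite strand, which fell with TMM (log2 -0.33, edgeR adjusted p = 0.0192), and it has a processed pseudogene, Ccnd3-ps, that can share reads.

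Ccnd2 (ENSMUSG00000000184, chromosome 6, 127125162 to 127152193, minus strand) was at 144, 131 and 127 CPM in wild type and 154, 153 and 151 CPM in knockout. The groups did not overlap, and the 3 knockout libraries were nearly equal. The log2 difference of 0.18 (SE 0.07) did not pass (edgeR adjusted p = 0.0685). It passed with DESeq2 (log2 0.21, adjusted p = 0.0273), with the stricter filter of 1 CPM (0.20, edgeR adjusted p = 0.0388), without wild type replicate 1 (0.25, edgeR adjusted p = 0.0142) and with the length and GC correction (0.44, edgeR adjusted p = 0.00143). With total counts it was called lower (log2 -0.95, SE 0.06, edgeR adjusted p = 1.41e-06).

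Ccnd1 (ENSMUSG00000070348, chromosome 7, 144929931 to 144939925, minus strand), the D cyclin best known as a growth factor response gene, was scarce. It had 248, 304 and 359 counts in wild type against 159, 184 and 141 in knockout, or 3.87, 3.71 and 4.14 against 4.22, 5.20 and 4.91 CPM with TMM. The groups did not overlap, but the gap between them was small. The log2 fold change was 0.29 (SE 0.16, edgeR adjusted p = 0.208) with TMM and -0.84 (SE 0.17, edgeR adjusted p = 0.00133) with total counts. Ccnd1 shares 1100 exon bases with LTO1 on the opposite strand, which had 256 to 1225 counts, and without strand the reads in the shared bases cannot be told apart.

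Within the D cyclins, Ccnd3 made up 66.2 ± 2.196% of the summed deposited FPKM in wild type against 71.0 ± 3.398% in knockout, Ccnd2 32.3 ± 2.31% and 27.6 ± 3.05%, and Ccnd1 1.55 ± 0.110% and 1.41 ± 0.347% (mean ± SD, n = 3 each). The order depends on the length used. The deposited FPKM of Ccnd3 correspond to about 1966 to 2065 bases, while its merged exons cover 8775, and per base of merged exon Ccnd2 stood above Ccnd3 in wild type. Ccnd2 relative to Ccnd3 was 1.42, 1.325 and 1.24 in wild type against 0.884, 1.01 and 1.15 in knockout, lower in all 3 knockout libraries by a log2 difference of -0.40 (exact permutation p = 0.1, adjusted 0.125). From deposited FPKM the same ratio was 0.539, 0.489 and 0.437 in wild type against 0.326, 0.397 and 0.448 in knockout, where the groups overlapped (log2 difference -0.33). Ccnd1 relative to Ccnd3 overlapped between the groups (log2 difference -0.30, exact permutation p = 0.2, adjusted 0.2), with knockout replicate 1 lowest, and without that library the difference was -0.11.

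The INK4 inhibitors differed in level and in fold change. Cdkn2c (ENSMUSG00000028551, chromosome 4, 109660876 to 109667189, minus strand) had 140, 180 and 165 counts in wild type against 43, 41 and 43 in knockout. With TMM these were 2.19, 2.197 and 1.90 CPM against 1.14, 1.16 and 1.497 CPM. All knockout libraries lay below wild type, the only member of which this was so with TMM. The log2 fold change was -0.73 (SE 0.25) and just missed the threshold (edgeR adjusted p = 0.0536). It passed without knockout replicate 3 (log2 -0.87, edgeR adjusted p = 0.0421) and with total counts (log2 -1.86, SE 0.25, edgeR adjusted p = 1.01e-04).

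Cdkn2d (ENSMUSG00000096472, chromosome 9, 21288410 to 21291407, minus strand) was by FPKM the most abundant of the 3 member inhibitors, at 46.7 ± 2.76 in wild type against 21.4 ± 1.42 in knockout (n = 3 each), against 2.04 ± 0.251 and 0.556 ± 0.0429 for Cdkn2c. These FPKM follow total counts, by which most genes were lower in knockout. With TMM Cdkn2d stood at 52.0, 48.4 and 50.9 CPM in wild type and 58.8, 52.0 and 51.1 CPM in knockout. The groups overlapped, at a log2 difference of 0.10 (SE 0.08, edgeR adjusted p = 0.403) that turned to -0.11 with the length and GC correction and was -1.03 (SE 0.08, edgeR adjusted p = 2.49e-06) with total counts. The ratio of Cdkn2d to Cdkn2c in counts per base was 40.6, 37.6 and 45.6 in wild type against 87.9, 76.7 and 58.3 in knockout. It was higher in all 3 knockout libraries, by a log2 difference of 0.83 (exact permutation p = 0.1, adjusted 0.125), or 0.59 with the length and GC correction.

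Cdkn1b (ENSMUSG00000003031, chromosome 6, 134920401 to 134925513, plus strand) encodes p27, which restrains Cdk2 complexes and keeps progenitors out of cycle. It had 137, 234 and 238 counts in wild type against 113, 146 and 106 in knockout, or 2.14, 2.86 and 2.75 against 2.999, 4.12 and 3.69 CPM with TMM. The groups lay next to each other without overlap. The log2 fold change was 0.48 (SE 0.21, edgeR adjusted p = 0.119). It was called higher with the length and GC correction (0.69, edgeR adjusted p = 0.0243) and lower with total counts (-0.66, SE 0.23, edgeR adjusted p = 0.0248).

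Summed over Cdkn1b, Cdkn2c and Cdkn2d, the inhibitors relative to the D cyclins were at 1.27, 1.27 and 1.33 per base of exon in wild type against 1.07, 1.03 and 1.09 in knockout. This ratio was lower in all 3 knockout libraries, by a log2 difference of -0.28 (exact permutation p = 0.1, adjusted 0.125). From deposited FPKM it was 0.552, 0.578 and 0.596 in wild type against 0.393, 0.389 and 0.425 in knockout, a log2 difference of -0.52. Whether the inhibitors stood above the D cyclins thus depended on the length used. The ratio was not computed with the length and GC correction. Cdkn2d supplied 93.7 ± 0.637% of the inhibitor sum by FPKM in wild type against 94.8 ± 0.751% in knockout (n = 3 each).

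Rb1 (ENSMUSG00000022105, chromosome 14, 73183673 to 73325822, minus strand), the substrate on which the kinases converge, was near the detection limit. It had 35, 96 and 87 counts in wild type against 24, 18 and 17 in knockout. With TMM it was at 0.547, 1.17 and 1.004 CPM against 0.637, 0.509 and 0.592 CPM, and wild type replicate 1 lay among the knockout libraries. The log2 difference of -0.65 (SE 0.44, edgeR adjusted p = 0.307) was not detectable at this depth, and with total counts it was -1.79 (SE 0.44, edgeR adjusted p = 0.00452). Rcbtb2 and Lpar6 share 488 and 408 exon bases with it on the opposite strand and had more counts than Rb1 in every library (410 to 1557 and 198 to 643).

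**Figure D3:**
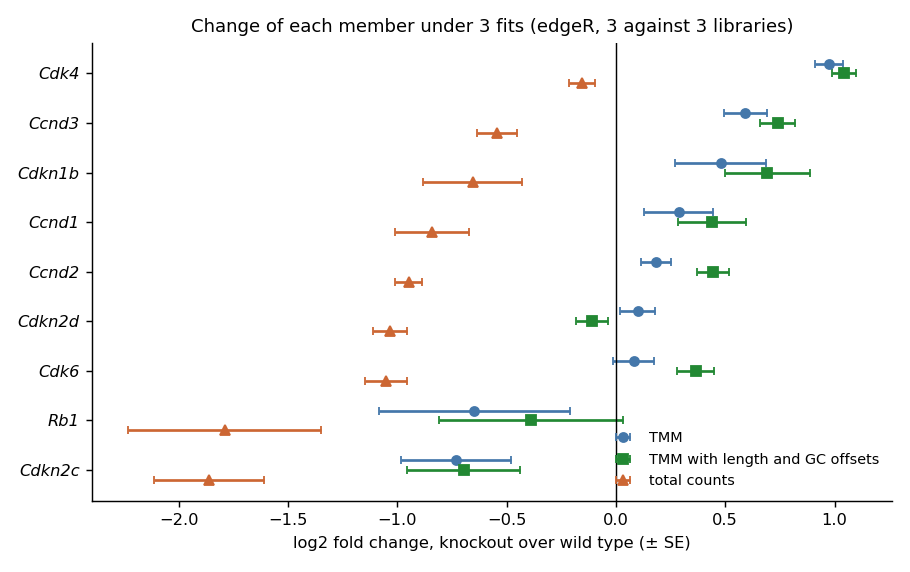
Log2 fold change of each member, knockout over wild type, with its standard error, in 3 edgeR fits: TMM (blue circles), TMM with length and GC correction (green squares) and total counts (orange triangles). Cdk4 is highest and Cdkn2c lowest under each fit, while the zero line falls at a different place among the members.

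From highest to lowest log2 fold change with TMM the members ran Cdk4, Ccnd3, Cdkn1b, Ccnd1, Ccnd2, Cdkn2d, Cdk6, Rb1 and Cdkn2c, an order that library scaling, which shifts all genes by about the same amount, left as it was with total counts. The length and GC correction, which can reorder genes, put Ccnd2 (0.44) level with Ccnd1 (0.44) and Cdk6 (0.36) above Cdkn2d (-0.11). Of all genes tested, 88.9% had a lower TMM log2 fold change than Cdk4, 82.0% than Ccnd3, 60.9% than Cdk6 and 14.0% than Cdkn2c. Each pair of neighbours from Ccnd3 to Ccnd2, Cdkn2d with Cdk6, and Rb1 with Cdkn2c differed by less than the larger of the pair's standard errors. The authors' deposited table gives Cdk4 a log2 fold change of 0.98 and Ccnd3 0.60 (adjusted p = 1.91e-38 and 2.24e-08), and classes all 9 members as stable.

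Ranks within a library also do not depend on scaling. By deposited FPKM among 15474 genes, Cdk4 ranked 668 to 695 in wild type and 586 to 605 in knockout, and Cdk6 350 to 406 and 520 to 628. Cdk4 thus stood higher in the order of genes in knockout and Cdk6 lower, with no overlap for either. Cdkn2d moved from 1616 to 1721 down to 1799 to 1959, and Cdkn2c from 8001 to 8690 down to 9256 to 9606. Ccnd2 (2189 to 2405 and 2246 to 2296), Ccnd3 (1393 to 1479 and 1171 to 1415) and Rb1 (12954 to 14187 and 13640 to 13910) overlapped, while Ccnd1 (9218 to 9538 and 8191 to 9033) and Cdkn1b (9733 to 10662 and 8650 to 9392) ranked higher in knockout. The share of all genes without overlap in rank was not computed. By TMM CPM, 22.2% of all genes lay wholly above and 24.4% wholly below in knockout. The ranks were not corrected for the trend of fold changes with exon length.

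**Figure D4:**
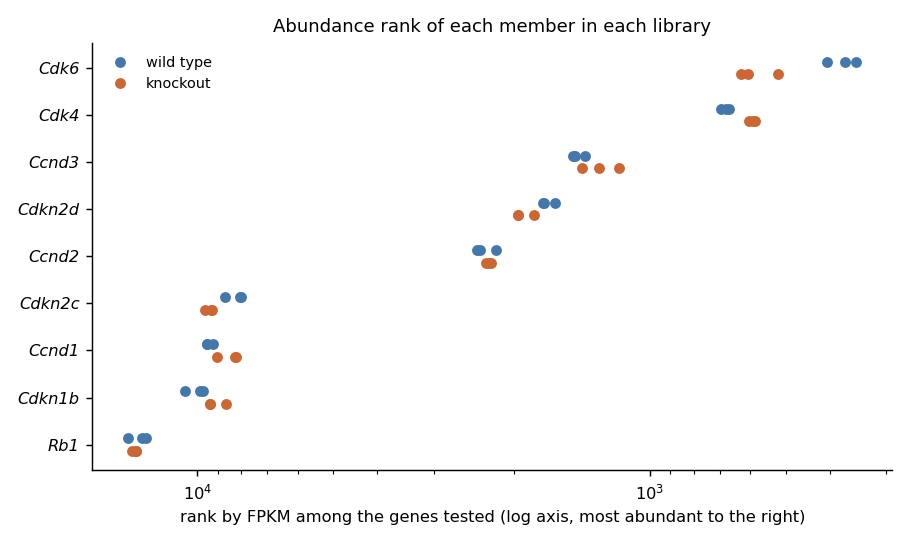
Rank of each member by deposited FPKM among the 15474 genes tested, in each library, on a log axis with the most abundant to the right; blue points are wild type and orange points knockout. Cdk6 lies between 350 and 406 in wild type and between 520 and 628 in knockout.

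The other genes of the pathway fell into 7 lists with 74 genes tested. With TMM 21 of these rose and 12 fell, and with total counts 1 rose and 67 fell (background 17.2% and 14.4% with TMM, 4.24% and 70.7% with total counts). Of 17 E2F target genes of S phase, 11 rose, 0 fell and 6 did not pass, at a median log2 fold change of 0.30. The helicase subunit genes Mcm6 (log2 0.77), Mcm3 (0.46) and Mcm5 (0.40) and the ribonucleotide reductase gene Rrm2 (0.71) rose and were called with any single library left out (largest edgeR adjusted p = 0.00787). With total counts all 17 fell, at a median of -0.83.

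Of 10 other G1/S cyclins, kinases and activators 1 rose and 2 fell with TMM (median -0.05), and with total counts 9 fell. Ccna2, the cyclin of S phase, rose from 31.3 ± 1.004 to 61.1 ± 3.45 CPM (n = 3 each; log2 0.97, SE 0.08, edgeR adjusted p = 1.21e-05), and with total counts stood at -0.17 and did not pass. Ccne2, the cyclin that drives Cdk2 at the S phase boundary, fell (log2 -0.59, edgeR adjusted p = 0.0171), as did Cdk7, the CDK-activating kinase (-0.29, 0.0434). Ccne2 was called in 3 of 6 fits that each left out a library (not without knockout replicate 1 or wild type replicate 2 or 3), and Cdk7 in 1 of 6 (without wild type replicate 1). Of 2 other inhibitors, Cdkn1a (p21) rose (log2 0.44, edgeR adjusted p = 0.00321) and Cdkn3 did not pass, and with total counts both fell.

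Of 12 pocket protein, E2F and DP genes 1 rose and 1 fell with TMM (median -0.22), and with total counts all 12 fell. Tfdp1, the E2F partner, rose (log2 0.34, edgeR adjusted p = 0.0186; not called without knockout replicate 2), and E2f4, a repressor E2F of resting cells, fell (-0.26, edgeR adjusted p = 0.0482) but in 0 of 6 fits that left out a library. The other pocket proteins did not pass, with Rbl1 at -0.61 and Rbl2 at 0.34. Among 7 genes of the DREAM and MuvB list 1 rose and 3 fell (median -0.47), and with total counts 6 fell. The DREAM complex holds cell cycle genes silent in quiescence, but the list also holds genes outside that complex, among them Mybl2. The histone chaperone gene Rbbp4 rose (log2 0.96, edgeR adjusted p = 7.33e-06), while Lin52 (-0.83, edgeR adjusted p = 0.0364), Lin37 (-0.37, edgeR adjusted p = 0.0163) and Mybl2 (-0.30, edgeR adjusted p = 0.0389) fell. Lin52 was called in 2 of 6 such fits (without knockout replicate 3 or wild type replicate 1), Lin37 in 3 (without knockout replicate 1 or 3 or wild type replicate 3) and Mybl2 in 0.

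Of 14 genes for the turnover of G1 regulators 4 rose and 3 fell with TMM (median -0.02), and with total counts 13 fell. Skp1a (log2 0.76) and Rbx1 (0.29), core subunits of SCF ubiquitin ligases, and Cks1b (0.67), which helps SCF recognise p27, rose, though Rbx1 was not called without wild type replicate 2 or 3. With the length and GC correction Cks1b stood at 0.30 and Rbx1 at 0.50, both still called. Fbxo31, an F-box gene whose product marks cyclin D1 for degradation, fell from 5.38 ± 1.19 to 1.70 ± 0.315 CPM (n = 3 each; log2 -1.66, SE 0.23, edgeR adjusted p = 0.000497). It was called lower in all 6 fits that left out a library. Skp2 (log2 -0.86, edgeR adjusted p = 0.017) and Cul4a (-0.56, edgeR adjusted p = 0.0223) also fell with TMM. With the length and GC correction neither was called lower.

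Of 12 upstream transcription factors 2 rose and 3 fell with TMM (median -0.21), and with total counts 1 rose and 8 fell. Myc, whose product binds E-boxes, rose from 20.6 ± 2.27 to 43.1 ± 3.35 CPM (n = 3 each; log2 1.07, SE 0.10, edgeR adjusted p = 5.03e-05) but stood at -0.06 with total counts and did not pass. Whether Myc acts on any member was not tested. Klf6 rose under both scalings (log2 1.66 and 0.53). Gfi1, a repressor that limits progenitor division, fell (-0.90, edgeR adjusted p = 0.019), as did the Polycomb gene Bmi1 (-1.79, edgeR adjusted p = 0.0387). Gfi1 was called in 2 of 6 fits that left out a library (knockout replicate 3 or wild type replicate 2), and Bmi1 in 1 (knockout replicate 2).

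The length and GC correction moved several of these lists. It ended the calls of Cdk7 (log2 -0.11, edgeR adjusted p = 0.446), Lin52 (-0.67, 0.0732), Mybl2 (-0.24, 0.0887) and Bmi1 (-1.61, 0.0577), and moved Lin37 to -0.66. Genes called lower went from 3 to 1 in the DREAM and MuvB, turnover and upstream factor lists, and from 2 to 1 among the other G1/S genes. Genes called higher went from 1 to 3 among the other G1/S genes and from 1 to 2 among the pocket protein, E2F and DP genes. Of the E2F targets 12 of 17 were called higher and 0 lower. DESeq2 did not call Cdk7, Mybl2 or E2f4 (adjusted p = 0.0555, 0.0668 and 0.0798).

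**Figure D5:**
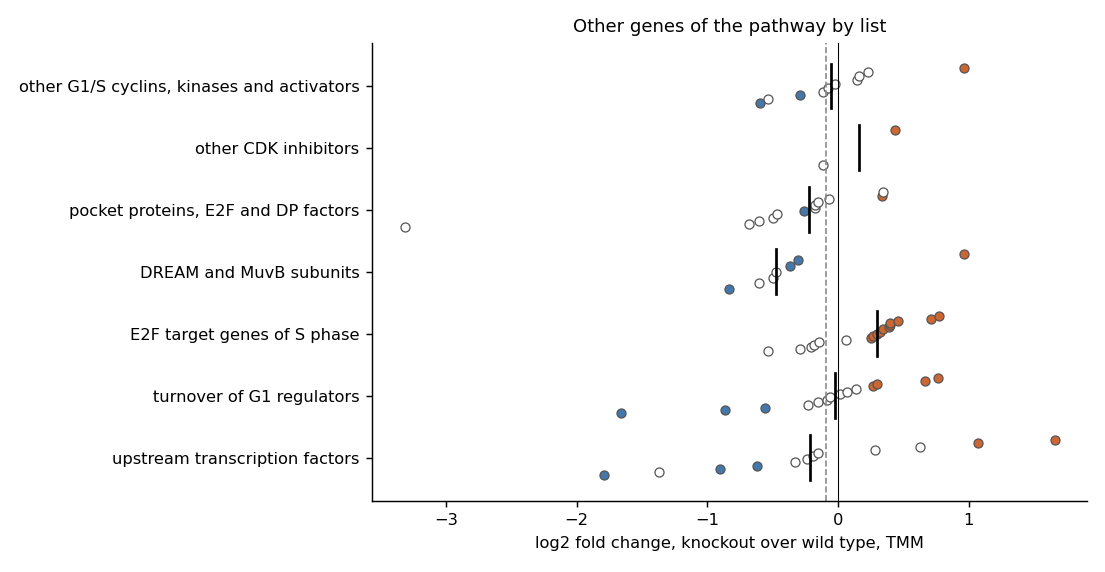
Log2 fold change with TMM of the 74 other pathway genes by list, knockout over wild type; filled points were called (orange higher, blue lower), open points were not, black bars are list medians and the dashed line is the median of all genes (-0.09). The E2F targets hold 11 filled points above 0 and none below.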

How the data were processed

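The authors deposited raw read counts per gene, length-scaled values taken as FPKM, and a DESeq2 comparison. Tools listed in the submitters' processing notes, with no roles, are HISAT2 2.2.1 and fastp 0.22.0, then DESeq2 1.32.0 and featureCounts 2.0.1; the build is mm10. The FPKM unit is not in the file headers; for single-transcript genes at least 98.6% of the deposited values lay within 1% of a constant multiple of FPKM computed from the counts. The authors' deposited table also holds log2 fold changes with standard errors, p-values, mean signal and a test score, used only as a description.

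Counts were tested with edgeR 4.0.16 in R 4.3.3 (filterByExpr, TMM, quasi-likelihood test, Benjamini-Hochberg over 15474 genes, called at adjusted p under 0.05), checked on simulated data. The simulation changed few genes, as many up as down, with no shift in library composition and no length trend. That check therefore cannot bear on the choice of scaling. DESeq2 1.42.0, other scalings and filters, a length and GC correction (mgcv 1.9.3, exon lengths from GENCODE vM21, GRCm38) and leaving out each library were alternatives. SE is the log2 fold change over the square root of F. Ratios used exact permutation (scipy 1.17.1). Skp1 was matched as Skp1a.

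Members and lists were chosen with earlier results of these data known. All members are named. From each pathway list up to 4 called genes of lowest p are named. Further genes (Rbl1, Rbl2, Cdkn3, Skp2, Cul4a, Kit, Mpo, Elane, Ltf, Camp, Mmp8, Jchain, Nkg7 and genes overlapping members) were named after their values were seen. The 6 planned ratios became 5 because Cdkn1c was not analysed here.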

Additional observations from a re-analysis of the deposited data

How the results depend on the processing

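With total counts 656 genes were called higher and 10936 lower, and 0 members higher and 9 lower. The log2 fold changes that turned were then Ccnd1 -0.84, Ccnd2 -0.95, Ccnd3 -0.54, Cdk4 -0.16, Cdk6 -1.05, Cdkn1b -0.66 and Cdkn2d -1.03. With the length and GC correction 5 members were called higher, with or without the replicate block (of 2434 and 2665 genes higher with and without it), and Cdkn2d stood at -0.11 in both. Leaving out a library gave 1356 to 2142 genes lower (1356 without wild type replicate 2 and 1419 without wild type replicate 3); members called lower ranged from 0 to 1, and the log2 fold change of Cdk6 from -0.041 (without knockout replicate 3) to 0.16. The causes were not tested. Cdk4 and Ccnd3 were called higher in every fit except that with total counts. The ratio of inhibitors to D cyclins moved to -0.52 with deposited FPKM; the other ratio values, 43 in all, stayed within 1 SD of the value reported, though Ccnd1 to Ccnd3 was -0.11 without knockout replicate 1.

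No pairing of same-numbered libraries was assumed. The correlations of their deviations from the group means were 0.14, -0.03 and 0.02 over 5331 genes. For differently numbered pairs they ran from -0.11 to 0.11. With 3 libraries per group these values cannot decide whether same-numbered libraries shared a batch. With the replicate block 2467 genes were called higher and 1906 lower, 2 members were higher and 0 lower. Depth limits Rb1, Cdkn2c, Cdkn1b and Ccnd1, each with fewer than 400 counts per library, and Rb1 had no value under the stricter filter of 1 CPM.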
